A study of Mus musculus with 14 samples.

Results

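The extracellular matrix genes described here encode the collagens, the small leucine-rich proteoglycans, the laminins, the elastic fibre and microfibril proteins, fibronectin and the matricellular proteins. They were chosen by gene symbol: all symbols of the form of a collagen chain, all Mfap, Fbn, Fbln, laminin chain, Thbs and Emilin symbols, and a short list of single genes (Dcn, Bgn, Fmod, Ogn, Eln, Fn1, Sparc, Tnc, Postn, Lox and others). Among the platform's named genes 60 matched. Of these, 54 had values on 10 or more of the 14 arrays and are the members, out of 9290 genes with that many values. All 54 passed the further requirement of 4 arrays in each dye orientation and were tested. The other 6 (Lama3, Lama4, Lamc3, Nid2, Emilin1 and Col9a2) had values on 6 to 9 arrays and were left out. Lum, Vcan, Spp1, Hspg2, Nid1, Fbn1, Col6a3 and Lama2 were not analysed here.

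Each array compared RNA of fibroblasts of genotype Ptdsr-/- with RNA of wild-type (Ptdsr+/+) fibroblasts. Fibroblasts are the connective tissue cells that make most of the interstitial matrix. Ptdsr, now named Jmjd6, was at first taken for the receptor by which phagocytes recognise phosphatidylserine on dying cells, and its product is a JmjC-domain protein found in the nucleus. The knockout RNA was labelled with Cy5 on 7 arrays (replicates 1, 3, 4, 7, 8, 9 and 13) and with Cy3 on 7 arrays (replicates 2, 5, 6, 10, 11, 12 and 14). No treatment is named for either genotype, and the sources used here do not say from which tissue the fibroblasts came or at which passage they were used. The study's design names 2 cultures, but no label says which array carried which culture, so p-values measured the spread between arrays, part of which may be technical. The wild-type RNA was the control on every array, and its own spread was not measured.

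Values are log2 ratios after centring each array on its median, so a negative value stands for less of a transcript in Ptdsr-/- than in wild-type RNA, relative to the typical gene. That direction is likely, and the labels do not state it. Its basis is that a repeated extreme, which lay 16.6 log2 units from each array's most frequent value, had a positive sign on each of the 7 knockout-in-Cy5 arrays and a negative sign on each of the 7 knockout-in-Cy3 arrays. Over 730 well measured genes that are no members, the 18 pairs of arrays of opposite dye within replicates 1 to 6 or within replicates 7 to 12 all had a rank correlation above 0 (median 0.181). Over all 9216 genes that are no members the same 18 pairs all lay below 0 (median -0.104), which goes against this direction. With the Cy3 arrays turned in sign, the mean and the dye term described below exchange places. Ratios hold no level, so whether a fibroblast gene was abundant could not be checked, and levels cannot be compared between genes. In cultures, fewer cells of a type and less RNA per cell cannot be told apart.

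Collagens are trimers of alpha chains, and the fibrils of types I, III and V give connective tissue its tensile strength. Prolyl and lysyl hydroxylases modify the chains in the endoplasmic reticulum, and lysyl oxidase (Lox) crosslinks the secreted fibrils. Decorin and other leucine-rich proteoglycans bind collagen fibrils and regulate their diameter. Elastin is deposited on a scaffold of fibrillin microfibrils, with fibulins and microfibril-associated proteins. Collagen VI forms beaded filaments around cells, while laminins and collagen IV make up basement membranes. Matricellular proteins such as tenascin C, periostin and the thrombospondins act on cells more than they bear load.

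Mean log2 ratios of Col6a1, Col6a2, Col5a3 and Tnc were higher on replicates 1 to 6 than on replicates 7 to 12. Mfap2 was the reverse, as described below. The promoters of these 5 genes are printed here for that reason. Each is the RefSeq sequence on build GRCm38.p6 from 250 bases before to 50 bases after the annotated gene start, read 5′ to 3′ on the gene's strand. Col6a1 lies at chr10:76725995-76726294, Col6a2 at chr10:76623355-76623654, Col5a3 at chr9:20815018-20815317 and Tnc at chr4:64046966-64047265, all on the minus strand, and Mfap2 at chr4:141010431-141010730 on the plus strand. Capitals mark matches to 5 short motifs on either strand.
Col6a1: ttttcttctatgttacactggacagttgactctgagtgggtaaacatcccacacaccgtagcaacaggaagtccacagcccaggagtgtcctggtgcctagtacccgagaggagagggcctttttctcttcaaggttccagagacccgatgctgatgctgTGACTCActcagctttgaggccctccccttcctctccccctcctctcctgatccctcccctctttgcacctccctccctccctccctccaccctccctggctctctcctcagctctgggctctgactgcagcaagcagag
Col6a2: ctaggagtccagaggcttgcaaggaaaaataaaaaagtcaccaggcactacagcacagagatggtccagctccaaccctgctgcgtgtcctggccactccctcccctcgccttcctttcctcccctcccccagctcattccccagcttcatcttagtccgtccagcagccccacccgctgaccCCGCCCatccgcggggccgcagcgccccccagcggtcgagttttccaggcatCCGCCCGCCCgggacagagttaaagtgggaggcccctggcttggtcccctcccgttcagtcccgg
Col5a3: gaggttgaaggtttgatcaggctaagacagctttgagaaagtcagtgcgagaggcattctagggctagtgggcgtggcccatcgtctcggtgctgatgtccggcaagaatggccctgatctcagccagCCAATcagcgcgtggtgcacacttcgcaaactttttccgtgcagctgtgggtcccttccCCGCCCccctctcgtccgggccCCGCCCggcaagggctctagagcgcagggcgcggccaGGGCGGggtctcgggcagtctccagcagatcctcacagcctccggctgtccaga
Tnc: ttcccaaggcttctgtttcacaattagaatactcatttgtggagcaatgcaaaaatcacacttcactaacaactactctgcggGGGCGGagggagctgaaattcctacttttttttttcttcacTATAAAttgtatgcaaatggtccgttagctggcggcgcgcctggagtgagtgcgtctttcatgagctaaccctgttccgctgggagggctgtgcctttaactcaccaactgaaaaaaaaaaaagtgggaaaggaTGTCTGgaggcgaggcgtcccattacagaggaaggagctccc
Mfap2: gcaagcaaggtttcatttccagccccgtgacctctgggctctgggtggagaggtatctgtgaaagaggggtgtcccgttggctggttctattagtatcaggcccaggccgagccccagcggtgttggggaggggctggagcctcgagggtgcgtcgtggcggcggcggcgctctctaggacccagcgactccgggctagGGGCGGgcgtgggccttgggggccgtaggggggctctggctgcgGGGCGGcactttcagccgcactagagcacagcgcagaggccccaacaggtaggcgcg

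The motifs searched, on both strands, were the TATA box TATAAA, the GC box GGGCGG, the AP-1 site TGAGTCA, the CCAAT box and the Smad box CAGACA. Windows were found for 37 of the 54 members, and not for Eln, Dcn or Col14a1. Tnc held a TATA box, a GC box and a Smad box. Col5a3 held 3 GC boxes and a CCAAT box. Col6a2 held 3 GC boxes, a pair of which overlap, and Mfap2 held 2. The window of Col6a1 held the AP-1 site and no other of these motifs, although Col6a1 and Col6a2 are adjacent genes on chromosome 10. GC boxes were in 24 of the 37 member windows (64.9%), against 35.9% of all 27025 windows. The median GC content was 61% in the member windows and 52.7% in all windows. A TATA box was in 16.2% of the member windows and 14.2% of all, a CCAAT box in 43.2% and 37.9%, a Smad box in 29.7% and 21.0%, and an AP-1 site in 2.70% and 5.17%. These are matches of letters and were not tested as binding sites. The windows of Col4a1 and Col4a2, which are transcribed in opposite directions from adjacent starts, overlap by 78 bases and are not independent.

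No matrix gene passed the test of Ptdsr-/- against wild type. Of the 54 members 0 had a limma adjusted p below 0.05, the threshold for a called gene, against a background of 8 called genes among 9270 tested (0.0863%). The smallest adjusted p of a member was 0.666. At an unadjusted p below 0.05, 6 members had a mean below 0, where 2.94% of all genes did, and 0 had a mean above 0, where 2.41% of all genes did. The members' fitted means had a median of -0.08, and 35 of 54 (64.8%) lay below 0. Over all genes tested the median was 0.00 and 49.6% lay below 0. These directions depend on the reading of the dyes. With the Cy3 arrays turned in sign the members' median was 0.03 and 44.4% lay below 0, against 50.6% of all genes. The medians of the fibrillar, basement membrane, fibril-associated and transmembrane collagens, the laminins and the matricellular genes then had the opposite sign to those given below. The members' median on a single array ran from -0.39 on replicate 12 to 0.21 on replicate 13. The 6 members were Dcn, Mfap2, Col6a1, Postn, Col5a2 and Ogn. Leaving out single arrays left between 5 and 8 such members.

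**Figure D1:**
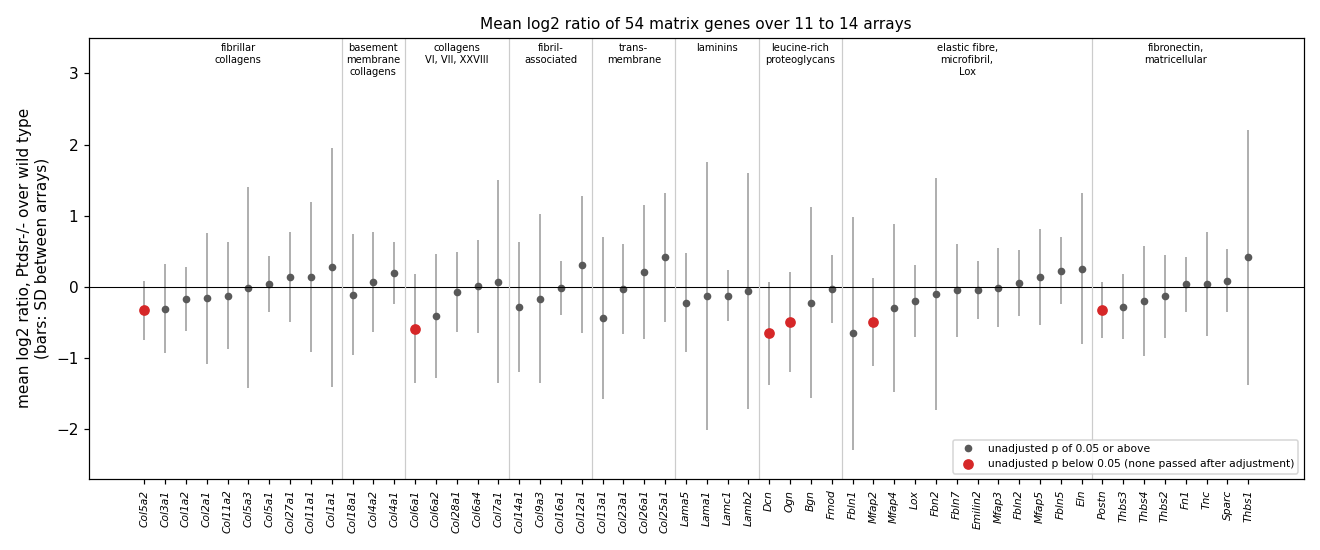
Mean log2 ratio of the 54 matrix genes, Ptdsr-/- over wild type (vertical axis, log2), grouped by role along the horizontal axis. Points are means over 11 to 14 arrays and bars are the SD between arrays; the 6 genes with an unadjusted p below 0.05 are in red, all below 0, and none passed after adjustment.

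The 4 measured small leucine-rich proteoglycans all had fitted means below 0, with a median of -0.40. With the Cy3 arrays turned in sign, 2 of the 4 lay below 0 and the median was -0.03. Dcn (decorin) ranged from -1.60 to 0.62 over 14 arrays with a median of -0.73, and lay below 0 on 10 of them. Its mean was -0.65 ± 0.72 (SD, n = 14), with an unadjusted p of 0.00471 and an adjusted p of 0.666 from limma. All 6 of replicates 1 to 6 were at -1.04 or lower, while replicates 7 to 10 were at or above 0. Ogn (osteoglycin, or mimecan) ranged from -1.45 to 0.54 with a median of -0.62, and its mean was -0.49 ± 0.70 (SD, n = 12; unadjusted p = 0.0332, adjusted p = 0.901). Bgn (biglycan) had the largest spread of the group, from -2.43 to 2.61 with a median of -0.05 and a mean of -0.22 ± 1.34 (SD, n = 12; unadjusted p = 0.370). Fmod (fibromodulin) had the smallest, from -0.64 to 1.06 with a median of -0.11 and a mean of -0.03 ± 0.48 (SD, n = 14; unadjusted p = 0.832).

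Ogn lies on chromosome 13 next to Omd, which is next to Aspn, and all 3 encode leucine-rich proteoglycans. Aspn (asporin) is no member but belongs to the wider list of proteoglycans. It was below 0 on 14 of 14 arrays, from -0.99 to -0.14, with a median of -0.39. Its mean was -0.48 ± 0.29 (SD, n = 14), and it did not pass the test (unadjusted p = 0.000615, adjusted p = 0.302). Aspn thus had a smaller unadjusted p than any member, with a mean of -0.54 on replicates 1 to 6 and -0.49 on replicates 7 to 12.

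The fibrillar collagens centred near 0, with a median of -0.07 over 10 chains. Col5a2, a chain of the type V collagen that starts fibril assembly, ranged from -1.24 to 0.12 with a median of -0.20. Its mean was -0.33 ± 0.42 (SD, n = 14; unadjusted p = 0.0231, adjusted p = 0.893), and its 2 probes gave -0.43 and -0.23. It stood at -0.04 ± 0.13 on replicates 1 to 6 and at -0.57 ± 0.46 on replicates 7 to 12 (SD, n = 6 each), with overlapping values. The other type V chains had means of 0.04 ± 0.39 for Col5a1 and -0.01 ± 1.41 for Col5a3 (SD, n = 14 each). Col5a1 had the smallest spread of the group, from -0.97 to 0.62 with a median of 0.00 (unadjusted p = 0.748). It averages 3 probes that disagreed between replicates 1 to 6 and replicates 7 to 12. Their means in that order were -1.10 and 1.34, 0.30 and -0.52, and 0.40 and 0.09. Of the major interstitial chains, Col1a2 had a mean of -0.16 ± 0.45 (SD, n = 14) and 4 probes between -0.21 and -0.12. Col3a1, the neighbour of Col5a2 on chromosome 1, had a mean of -0.31 ± 0.63 (SD, n = 11).

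Col1a1, the partner chain of Col1a2 in type I collagen, had the largest spread of the fibrillar collagens, from -2.45 to 3.40 with a median of -0.26 and a mean of 0.27 ± 1.68 (SD, n = 13; unadjusted p = 0.584). Replicates 10, 11 and 12, all with the knockout in Cy3, gave 3.33, 3.40 and 1.90, while replicates 7, 8 and 9, with the knockout in Cy5, gave -0.75, -0.26 and -0.28. Its 2 probes disagreed, with means of -0.56 over 9 arrays and 0.73 over 13 arrays. The cartilage-type chains had means of -0.16 for Col2a1, 0.14 for Col11a1 and -0.12 for Col11a2, and Col27a1 of 0.14, with SDs from 0.64 to 1.06.

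Of the collagen VI genes, Col6a1 had an unadjusted p below 0.05, and Col6a2 and Col6a4 did not. Col6a1 ranged from -1.66 to 0.78 with a median of -0.43, and its mean was -0.59 ± 0.77 (SD, n = 14; unadjusted p = 0.0104, adjusted p = 0.834). Col6a2, the partner chain encoded next to it, had a mean of -0.41 ± 0.87 (SD, n = 14) and 2 probes at -0.43 and -0.35. Col6a4 had a mean of 0.01 ± 0.65 (SD, n = 13). Col7a1, which forms the anchoring fibrils of skin, had the largest spread of its group, from -1.57 to 2.54 with a median of -0.18 and a mean of 0.07 ± 1.43 (SD, n = 13; unadjusted p = 0.965). Col28a1 had the smallest, from -0.83 to 0.96 with a median of -0.09 and a mean of -0.07 ± 0.56 (SD, n = 11; unadjusted p = 0.575).

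Among basement membrane genes, the median was 0.07 over 3 collagens and -0.17 over 4 laminin chains. Fitted means lay below 0 for 1 of the 3 collagens and for all 4 laminin chains. Col4a1 had the smallest spread of the 3 collagens, from -0.52 to 0.84 with a median of 0.11 and a mean of 0.19 ± 0.43 (SD, n = 14; unadjusted p = 0.176). Its 4 probes disagreed, 3 of them between -0.08 and 0.06 and 1 at 1.13, and the gene value averages them. Col4a2 had a mean of 0.07 ± 0.70 (SD, n = 12). Col18a1, the source of endostatin, had the largest spread of the 3, from -2.12 to 1.37 with a median of 0.03 and a mean of -0.11 ± 0.85 (SD, n = 14; unadjusted p = 0.635). Lamc1, the gamma chain of most laminins, had the smallest SD of all members and ranged from -0.84 to 0.47 with a median of -0.16 and a mean of -0.12 ± 0.35 (SD, n = 14; unadjusted p = 0.281). Its value averages 3 probes, which had larger SDs of 0.43, 0.66 and 1.72. Lama1 was the least steady, from -3.20 to 3.55 with a median of 0.13 and a mean of -0.13 ± 1.88 (SD, n = 12; unadjusted p = 0.567). Lama5 had a mean of -0.22 ± 0.70 (SD, n = 13) and Lamb2 of -0.06 ± 1.66 (SD, n = 14).

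Among the fibril-associated collagens, which sit on fibril surfaces, 3 of 4 had means below 0 and the median was -0.09. Col14a1 had a mean of -0.29 ± 0.91 and Col12a1 of 0.31 ± 0.96 (SD, n = 14 each). Col16a1 had the smallest spread, from -0.55 to 1.0 with a median of -0.13 and a mean of -0.02 ± 0.38 (SD, n = 14; unadjusted p = 0.906). Col9a3 had the largest, from -2.49 to 2.2 with a median of 0.03 and a mean of -0.17 ± 1.19 (SD, n = 14; unadjusted p = 0.586). The transmembrane collagens had a median of 0.09. Col13a1 had the largest spread of these 4, from -2.37 to 1.20 with a median of -0.34 and a mean of -0.44 ± 1.14 (SD, n = 12; unadjusted p = 0.0870), and Col23a1 the smallest, from -1.43 to 0.73 with a median of 0.13 and a mean of -0.03 ± 0.63 (SD, n = 13; unadjusted p = 0.907). Col25a1 had a mean of 0.41 ± 0.91 (SD, n = 13). Col26a1, grouped with them here, had a mean of 0.21 ± 0.94 (SD, n = 14).

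The elastic fibre and microfibril genes had a median of -0.06 over 12 members, 8 of them below 0. Mfap2, a microfibril-associated glycoprotein, ranged from -1.68 to 0.20 with a median of -0.48, and its mean was -0.50 ± 0.62 (SD, n = 14; unadjusted p = 0.0101, adjusted p = 0.834). Fbln1 (fibulin 1) had the largest spread of its group, from -3.34 to 2.59 with a median of -0.64 and a mean of -0.66 ± 1.64 (SD, n = 11; unadjusted p = 0.178). Its fitted mean of -0.66 was -0.39 without replicate 14. Emilin2 had the smallest spread, from -1.28 to 0.46 with a median of 0.00 and a mean of -0.04 ± 0.41 (SD, n = 14; unadjusted p = 0.711), and its 2 probes differed in sign within each number range. Eln (elastin) had a mean of 0.25 ± 1.06 (SD, n = 14), a value over arrays of opposite sign, described below. The other fibulins had means of 0.05 for Fbln2, 0.23 for Fbln5 and -0.05 for Fbln7. Fbn2 (fibrillin 2) had a mean of -0.10 ± 1.63 (SD, n = 14), and Lox of -0.20 ± 0.51 (SD, n = 14). The remaining microfibril-associated genes had means of -0.01 for Mfap3, -0.30 for Mfap4 and 0.14 for Mfap5.

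Fibronectin and the matricellular genes had a median of -0.05 over 8 members, 4 of them below 0. Postn (periostin) ranged from -1.05 to 0.29 with a median of -0.20 and lay below 0 on 12 of 14 arrays. Its mean was -0.33 ± 0.39 (SD, n = 14; unadjusted p = 0.0217, adjusted p = 0.885). Fn1 (fibronectin), measured by 5 probes, had the smallest spread of the group, from -0.72 to 0.76 with a median of -0.04 and a mean of 0.03 ± 0.38 (SD, n = 14; unadjusted p = 0.796). Sparc had a mean of 0.08 ± 0.44 and Tnc (tenascin C) of 0.05 ± 0.73 (SD, n = 14 each). Thbs1 had the largest spread, from -2.59 to 3.80 with a median of 0.50 and a mean of 0.41 ± 1.80 (SD, n = 12; unadjusted p = 0.403). The other thrombospondins had means of -0.14 for Thbs2, -0.28 for Thbs3 and -0.20 for Thbs4.

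Members differed widely in how steady they were between arrays. Genes with 1 probe and genes with several averaged probes are ranked together here, and averaging can lower an SD. The median SD was 0.70 log2 units for the members and 0.81 for all genes tested, and 38.9% of the members had an SD above the latter. Spot brightness is not in the deposited ratios, so the share of a gene's values at ratios of whole numbers up to 10 was used as a stand-in for dim spots. Its median was 12.02% for the members and 16.7% for all genes tested. Thbs1 had 83.3% of its values at such ratios, Fbln1 54.5%, Fbn2 52.4% and Col7a1 52.4%, and all 4 had SDs above 1.4. Col4a2 (66.7%), Thbs2 (62.5%) and Col2a1 (53.8%) had like shares with SDs of 0.70, 0.58 and 0.92. Lama1 (25%), Col1a1 (22.7%) and Lamb2 (28.6%) had lower shares with SDs of 1.88, 1.68 and 1.66, and the SD of Lama1 was the largest of all members. Eln, Col5a3, Col14a1, Col6a1, Mfap2, Postn, Fbln5, Sparc and Col16a1 had 0% of their values there. Of these, Eln and Col5a3 had SDs of 1.06 and 1.41, above those of Postn and Sparc (0.39 and 0.44).

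**Figure D2:**
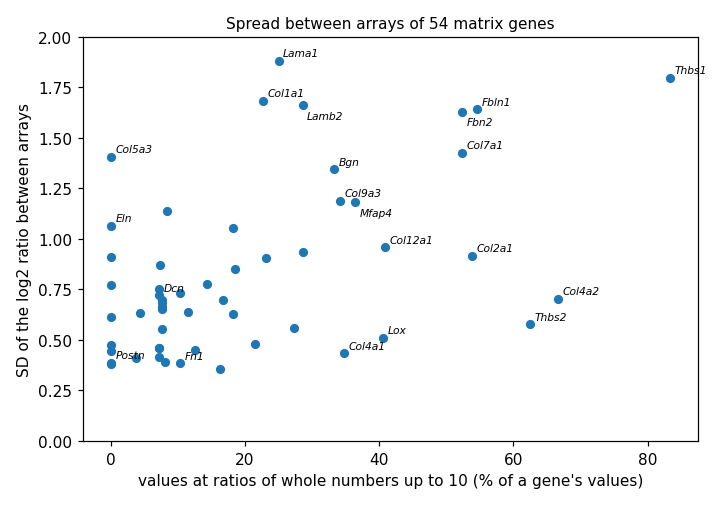
SD of the log2 ratio between arrays (vertical axis, log2 units) against the percent of a gene's values at ratios of whole numbers up to 10 (horizontal axis), 1 point for each of the 54 matrix genes. Thbs1, Fbln1, Fbn2 and Col7a1 lie high on the right, while Col5a3 and Eln lie high at 0% on the left. Lama1, Col1a1 and Lamb2 lie high between them.

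Eln, Dcn and Col5a3 took different values on replicates 1 to 6 and on replicates 7 to 12, in both dye orientations. These ranges of numbers are not labelled groups. They are set side by side because arrays of the same dye resembled each other more within a range than between ranges. Over the 730 well measured genes that are no members, pairs within a range had a median rank correlation of 0.411 when the dye was the same and 0.181 when it was opposite, against 0.04 for all other pairs of either kind. Over all 9216 genes that are no members the medians were 0.212 within a range for the same dye, against -0.03 for other pairs, and -0.104 for opposite dyes, against 0.05 for other pairs. No label says what the arrays of a range share, and the difference between the ranges was not tested. Col5a3, Eln, Col14a1, Col6a2 and Tnc were picked for fuller description after their values were seen.

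**Figure D3:**
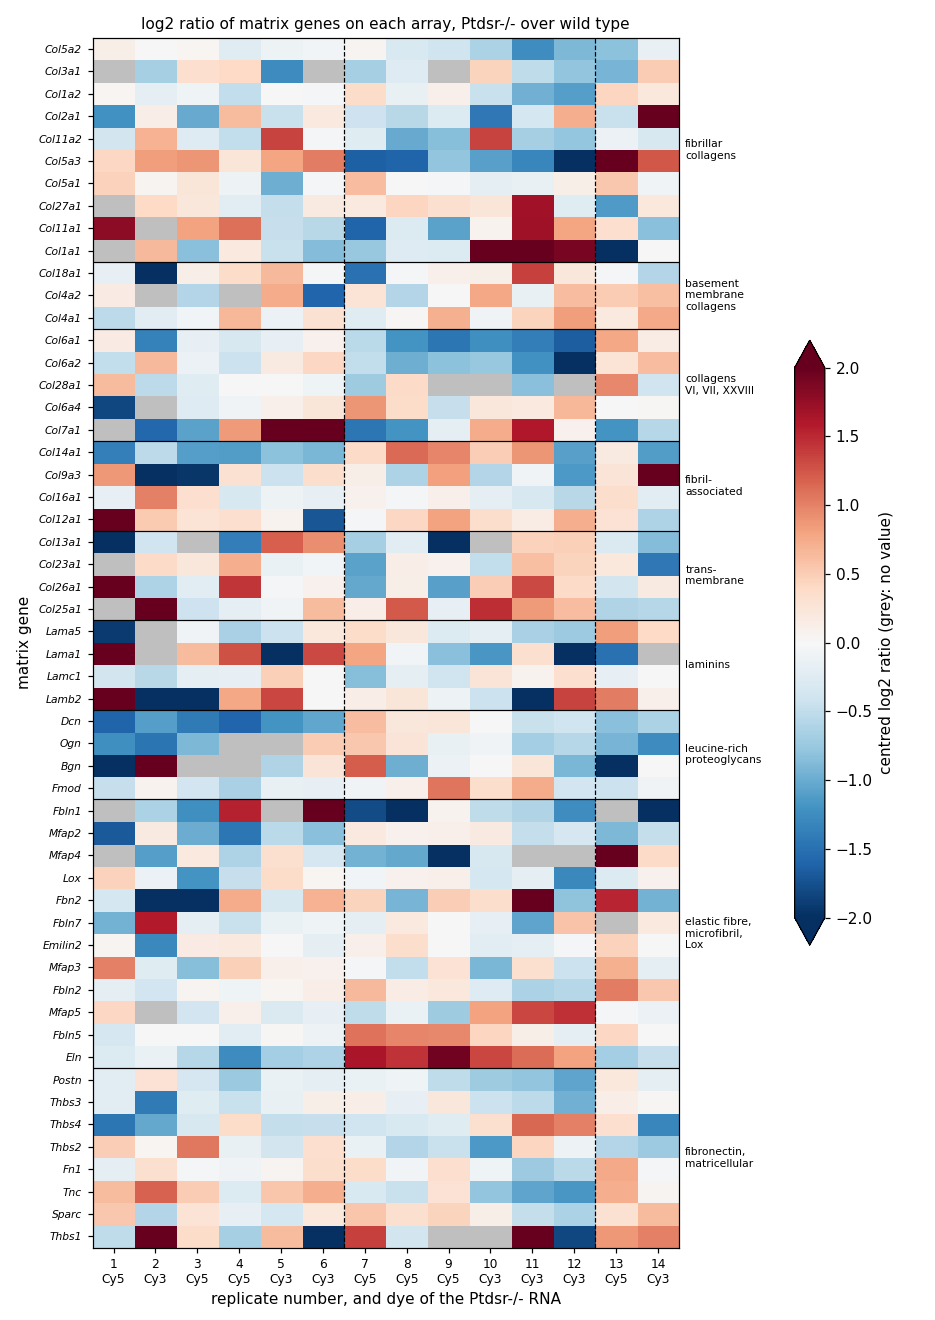
Centred log2 ratio of the 54 matrix genes (rows, by role) on the 14 arrays (columns, with the dye of the Ptdsr-/- RNA), coloured from blue (below 0) to red (above 0), with values beyond 2 in size at the end colours and missing values in grey. Dashed lines part replicates 1 to 6, 7 to 12 and 13 to 14; Eln is blue on replicates 1 to 6 and red on 7 to 12, and Col5a3 the reverse.

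Eln had values of -0.28, -0.14, -0.56, -1.26, -0.68 and -0.62 on replicates 1 to 6, and of 1.63, 1.45, 1.93, 1.33, 1.11 and 0.80 on replicates 7 to 12. All 6 of the first set lay below 0 and all 6 of the second above it, in both dye orientations. The means were -0.59 ± 0.39 and 1.38 ± 0.39 (SD, n = 6 each), a difference of -1.96, with a gap of -0.94 (1 to 6 minus 7 to 12) between the nearest arrays. Replicates 13 and 14 gave -0.69 and -0.46, inside the span of replicates 1 to 6. No other elastic fibre gene with values on all of replicates 1 to 12 was apart in this way. Fbln5, whose product binds elastin, had means of -0.10 ± 0.15 on replicates 1 to 6 and 0.57 ± 0.52 on replicates 7 to 12 (SD, n = 6 each), with overlapping values. On replicates 7 to 12 Fbln5 differed by dye, from 0.96 to 1.09 with the knockout in Cy5 and from -0.18 to 0.43 in Cy3. Mfap2 also had a lower mean on replicates 1 to 6, at -0.89 ± 0.67, than on replicates 7 to 12, at -0.04 ± 0.29 (SD, n = 6 each), and overlapped. On replicates 1 to 6 Mfap2 differed by dye, from -1.684 to -0.998 with the knockout in Cy5 and from -0.838 to 0.177 in Cy3. Its Cy3 values on replicates 7 to 12, from -0.479 to 0.175, lay within that Cy3 span. Fbn2 had means of -0.83 ± 1.66 on replicates 1 to 6 and 0.49 ± 1.56 on replicates 7 to 12 (SD, n = 6 each), a difference of -1.32 within a wide spread.

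Dcn lay between -1.60 and -1.04 on replicates 1 to 6 and between -0.45 and 0.62 on replicates 7 to 12. The 2 sets did not overlap, with means of -1.32 ± 0.25 and 0.04 ± 0.41 (SD, n = 6 each) and a difference of -1.36. Replicates 13 and 14, at -0.83 and -0.63, fell between them. Its mean below 0 over all 14 arrays thus rested on replicates 1 to 6, 13 and 14. Col14a1, whose product binds decorin on collagen fibrils, had means of -0.97 ± 0.29 on replicates 1 to 6 and 0.46 ± 0.81 on replicates 7 to 12 (SD, n = 6 each). Only replicate 12, at -1.09, kept its sets from being apart.

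Col5a3 ran the other way. It lay between 0.25 and 1.03 on replicates 1 to 6 and between -2.0 and -0.80 on replicates 7 to 12, with means of 0.70 ± 0.30 and -1.40 ± 0.43 (SD, n = 6 each). The difference was 2.10, the gap 1.04, and replicates 13 and 14 gave 2.84 and 1.24. Col6a1 and Col6a2 shared this order without a full separation. Col6a1 had means of -0.29 ± 0.55 on replicates 1 to 6 and -1.24 ± 0.38 on replicates 7 to 12, and Col6a2 of 0.03 ± 0.46 and -1.14 ± 0.75 (SD, n = 6 each). Both probes of Col6a2 showed it, at 0.05 and 0.02 on replicates 1 to 6 and -1.23 and -1.08 on replicates 7 to 12. Tnc had means of 0.55 ± 0.47 on replicates 1 to 6 and -0.58 ± 0.54 on replicates 7 to 12 (SD, n = 6 each), and all 3 of its probes had the higher mean on replicates 1 to 6. On replicates 7 to 12 Tnc differed by dye, from -0.45 to 0.30 with the knockout in Cy5 and from -1.17 to -0.79 in Cy3. Eln, Dcn, Col5a3, Col6a1, Col14a1 and Mfap2 each had 1 probe, so no other probe on these arrays repeats their values.

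**Figure D4:**
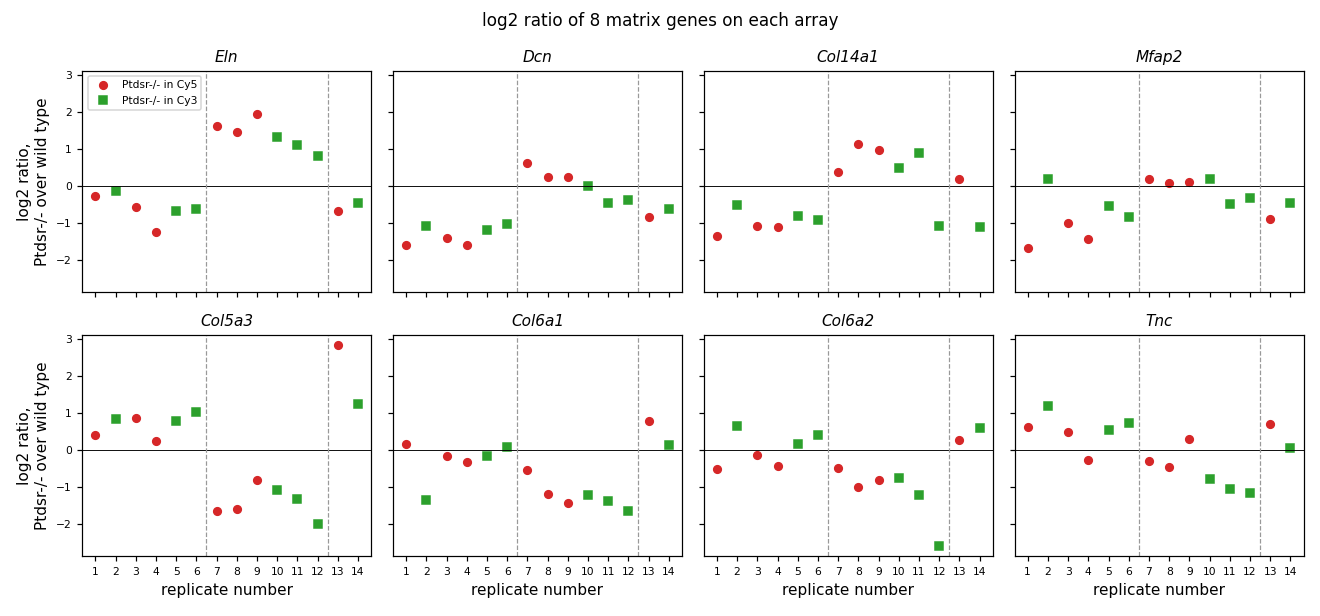
Log2 ratio, Ptdsr-/- over wild type (vertical axes), of 8 matrix genes on each array by replicate number (horizontal axes); red circles have the knockout in Cy5, green squares in Cy3, and dashed lines part the number ranges. Eln, Dcn, Col14a1 and Mfap2 (top) have lower means on replicates 1 to 6 than on 7 to 12, and Col5a3, Col6a1, Col6a2 and Tnc (bottom) higher ones.

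Among the 4795 genes with values on all of replicates 1 to 12, of which 35 are members, 0.73% had all values of replicates 1 to 6 above all values of replicates 7 to 12, and 0.501% had all of them below. Col5a3 was the 1 member of the first kind, and Dcn and Eln the 2 members of the second. Without centring, the same 3 members were apart in the same directions. These separations depend on the reading of the dyes. With the Cy3 arrays turned in sign, the values of each of these 3 genes overlap between the ranges. The differences of Eln, Dcn and Col5a3 were larger in size than those of 99.7%, 98.8% and 99.8% of these genes. Most of the 35 members overlapped between the ranges. Some of these differed little: Fn1 by 0.19, Col1a2 by 0.24, Sparc by -0.07, Lamc1 by 0.00 and Fbln2 by 0.01. The value of Lamc1 averages 3 probes that disagreed. Their means on replicates 1 to 6 and 7 to 12 were -0.48 and -0.16, -0.20 and -0.16, and 0.67 and -0.06. Other members differed more: Col14a1 by -1.43, Fbn2 by -1.32, Col6a2 by 1.18, Tnc by 1.13, Col6a1 by 0.95, Mfap2 by -0.84 and Thbs4 by -0.82. The latter were larger in size than those of 91.2% (Thbs4) to 99.0% (Col14a1) of these genes.

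**Figure D5:**
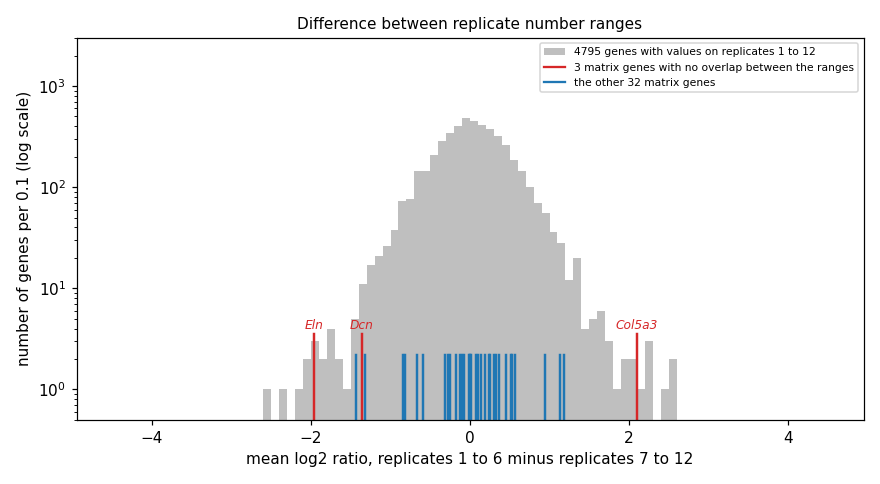
Mean log2 ratio on replicates 1 to 6 minus that on replicates 7 to 12 (horizontal axis, log2 units) for 4795 genes in grey (vertical axis, number of genes per 0.1, log scale). Vertical lines mark the 35 matrix genes among them; Eln, Dcn and Col5a3 (red) are the 3 without overlap between the ranges, at -1.96, -1.36 and 2.10.

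Tested against 0 within replicates 1 to 6, 0 of 37 members were called lower and 0 higher, as were 0% of the 5206 genes tested in either direction. Dcn came nearest, at -1.32 with an adjusted p of 0.0913 from limma. Within replicates 7 to 12, Eln was called higher in Ptdsr-/- at 1.38 (SE 0.14, adjusted p = 0.0304, limma). It was the 1 gene called higher among 8129 (0.0123%), while 0 of 49 members were called lower, against 0.123% of all genes. At an unadjusted p below 0.05, 8 of the 49 members were lower and 6 higher within this range, against 5.17% and 4.05% of all genes. The Eln call ended whichever of the 6 arrays was left out (adjusted p from 0.154 to 0.184), when 0 of all genes remained called each time. The estimate itself stayed between 1.31 and 1.44. With the Cy3 arrays turned in sign, the Eln dye term of this range, 0.29, would take its place (adjusted p = 0.305, limma). Eln would then not be called. Col6a1 at -1.24 (adjusted p = 0.107) and Col5a3 at -1.40 (adjusted p = 0.119) missed the threshold within replicates 7 to 12. These tests within a number range were added after the values had been seen.

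The dye term, which measures values that turn with the label and not with the genotype, was called for 0 of 54 members, against 0.0431% of all genes. At an unadjusted p below 0.05 3 of the 54 members passed, against 7.43% of all genes. Col13a1 had means of -1.19 ± 0.95 on the knockout-in-Cy5 arrays and 0.30 ± 0.79 on the knockout-in-Cy3 arrays (SD, n = 6 each). Col1a1 had means of -0.73 ± 0.92 (SD, n = 6) and 1.14 ± 1.76 (SD, n = 7) in the same order, and Col7a1 of -0.70 ± 0.88 (SD, n = 6) and 0.73 ± 1.52 (SD, n = 7). Dcn had nearly the same mean in both orientations, at -0.62 ± 0.97 on the knockout-in-Cy5 arrays and -0.69 ± 0.44 on the knockout-in-Cy3 arrays (SD, n = 7 each). Within each number range it differed by dye, in opposite directions. On replicates 1 to 6 it ran from -1.60 to -1.41 in Cy5 and from -1.19 to -1.04 in Cy3. On replicates 7 to 12 it ran from 0.23 to 0.62 in Cy5 and from -0.45 to 0.00 in Cy3. If the deposited ratios had not been turned by the authors, the values of Col13a1, Col1a1 and Col7a1 would be the genotype differences. The means of 5 genes given above would then be replaced by smaller values above 0. These are 0.03 for Dcn, 0.07 for Postn, 0.09 for Ogn, 0.11 for Col5a2 and 0.20 for Col6a1 (unadjusted p from 0.335 to 0.871, limma).

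The genes that make, crosslink and bind the matrix had 0 called members in each list. The collagen-processing and crosslinking enzymes had a median of 0.07 over 20 genes, of which 2 reached an unadjusted p below 0.05, both above 0. These were the lysyl oxidase relatives Loxl2, at 0.67 ± 0.82 (SD, n = 11; adjusted p = 0.834), and Loxl1, at 0.52 ± 0.90 (SD, n = 14; adjusted p = 0.850). The matrix receptors had a median of 0.00 over 21 genes, with 2 below 0 and 0 above 0 at that p. Sdc2, a heparan sulphate proteoglycan of the cell surface, had a mean of -0.31 ± 0.38, and the integrin subunit Itgb5 of -0.40 ± 0.65 (SD, n = 14 each; adjusted p = 0.901 for both). The genes of TGF-beta signalling, which drives matrix synthesis in fibroblasts, had a median of -0.06 over 23 genes, with 4 below 0 and 1 above 0 at that p. The means of the 4 were -0.62 for Smad6, an inhibitory Smad, -0.34 for Eng, a co-receptor, -0.33 for Id1, a target of the BMP branch, and -0.81 for Ltbp2. The shared mediator Smad4 had a mean of 0.40. The other proteoglycans and matrix glycoproteins had a median of -0.17 over 25 genes, with Aspn below 0 and the hyaluronan synthase Has2 above 0 at that p, Has2 at 0.64 ± 0.82 (SD, n = 11; adjusted p = 0.842).

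Other genes also differed between the number ranges. Cd44, the hyaluronan receptor, had means of 0.87 ± 0.11 on replicates 1 to 6 and -0.88 ± 0.63 on replicates 7 to 12, and Ccn1, a matricellular gene, of 0.14 ± 0.20 and -0.77 ± 0.56 (SD, n = 6 each), both without overlap. The fibroblast marker S100a4 had means of 0.81 ± 0.25 and -1.64 ± 0.38, and the epithelial marker Cdh1 of -1.86 ± 0.90 and 0.68 ± 1.14 in the same order (SD, n = 6 each), also without overlap. Of the fibroblast markers 8 of 9 had the higher mean on replicates 1 to 6, as did 3 of 3 smooth muscle markers and 4 of 5 macrophage markers. The counts were 3 of 5 for endothelial, 2 of 5 for epithelial, 1 of 4 for chondrocyte and osteoblast and 0 of 3 for adipocyte markers. The same share over all genes was not computed, so whether any of these counts is unusual is not known. The epithelial marker Krt18 ran against Cdh1, with means of 0.96 ± 2.30 and -0.46 ± 1.02 in that order (SD, n = 6 each). The part of these genes in the differences of Eln, Dcn and Col5a3 was not tested. The arrays' median over the fibroblast list ran from -0.04 to 0.66 on replicates 1 to 6 and from -0.34 to 0.02 on replicates 7 to 12.

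Over all 14 arrays, the macrophage marker Lyz2 was called lower in Ptdsr-/-, at -1.62 ± 0.96 (SD, n = 14; adjusted p = 0.0104, limma). The adipocyte marker Lpl was too, at -1.02 ± 0.46 (SD, n = 14; adjusted p = 0.00623, limma). Lyz2 had means of -1.34 with the knockout in Cy5 and -1.89 in Cy3, and Lpl of -1.07 and -0.98. With the Cy3 arrays turned in sign, the 2 means of each would have opposite signs. At an unadjusted p below 0.05, the macrophage marker Cd68 was at -0.51 ± 0.55 and the adipocyte marker Adipoq at -0.57 ± 1.13 (SD, n = 13 each; adjusted p = 0.751 and 0.901, limma). Of the macrophage markers 5 of 5 fitted means lay below 0, and of the adipocyte markers 3 of 3. Among them Ptprc lay below 0 on 5 of 11 arrays, Fcer1g on 6 of 11 and Fabp4 on 5 of 14. With the Cy3 arrays turned in sign, 1 of 5 macrophage and 3 of 3 adipocyte marker values lay below 0. The part of these markers in the members' median was not tested. Fibroblast markers had a median of -0.08 over 9 genes, smooth muscle markers of 0.17 over 3, endothelial markers of 0.00 over 5, epithelial markers of 0.09 over 5, and chondrocyte and osteoblast markers of -0.06 over 4. As a check of the labels, Jmjd6 itself lay below 0 on 12 of 14 arrays with a median of -0.32, and its mean was -0.25 ± 1.04 (SD, n = 14; adjusted p = 0.934). Replicate 2 stood at 2.92. The sources used here do not place its probe relative to the deleted part, so this value checks little. Between 13165 and 19615 of 20355 probes had a usable ratio on an array, and the number of arrays limits the precision.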

How the data were processed

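The deposited files hold, for each of 14 cDNA arrays, the authors' log2 ratios for 20355 probes, a unit read from the values. Per the labels' protocols, total RNA was labelled indirectly with Cy3 or Cy5; the protocol describes organs and pooled control animals, whereas both channels are labelled as fibroblasts, as was assumed here. The sources used here do not say how spots were scanned, background-corrected or normalized. Genes were named through the platform annotation, with 14030 probes of 1 symbol, 5 of several and 6320 of none.

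Values above 12 in size, between 91 and 315 coded extremes per array among them, were set to missing. Each array was centred on its median (-0.334 to 0.245 as deposited) and probes were averaged per gene. Genes with values on 10 or more arrays and on 4 or more per dye orientation were fitted with limma 3.58.1 (lmFit, eBayes) in R 4.3.3, with an intercept tested against 0 and a dye term. P-values were adjusted over 9270 genes (Benjamini-Hochberg), and the model was tested on simulated data. Where values are missing, a fitted mean weighs both dye orientations equally; list medians use it, and means ± SD are plain. The p of a member belongs to its fitted mean.

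Members and lists were chosen with earlier results of these data known. Every member is named; full values go to those with an unadjusted p below 0.05 or a mean of 0.5 or more in size, and to the largest and smallest spread per role group. List genes are named at an unadjusted p below 0.05, and some others for their values by number range or by array. Jmjd6 is named as a check.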

Additional observations from a re-analysis of the deposited data

How the results depend on the processing

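The 0 members called, the 6 at an unadjusted p below 0.05 and the members' median were recomputed under the other settings and without each array in turn. With the Cy3 arrays turned in sign, each mean is replaced by its dye term. Then 3 members had an unadjusted p below 0.05, the members' median was 0.0261, and the values of Col5a2 (0.108), Col6a1 (0.201), Dcn (0.0327), Ogn (0.0940) and Postn (0.0685) lay above 0, while Mfap2 (-0.167) and Fbln1 (-0.0370) stayed below 0. Arrays with the knockout in Cy3 alone gave 2 such members and those with it in Cy5 alone gave 4, from 7 arrays each. Replicates 7 to 12 alone, a setting added after seeing the data, gave 14 such members of 49 (8 lower, 6 higher, where 5.17% and 4.05% of all genes were), 1 called member (Eln) and a Dcn mean of 0.0424; the cause was not tested. Without single arrays, the called members were 0 to 0, those at an unadjusted p below 0.05 were 5 to 8, the median was -0.107 to -0.0496, and called dye terms were 0 to 0. The fit with a random block of number range and dye (estimated correlation 0.195) gave 0 called members, and 6 at an unadjusted p below 0.05. How far dim spots limit single members cannot be read from ratios.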
